A study of Mus musculus with 98 samples.

Results

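Levels of 36 mouse genes of cell division were followed in liver, skeletal muscle and 2 hypothalamic nuclei of mice with humanized or control livers. The genes were chosen by name: Mki67, Top2a, Ccnb1, Ccnb2, Ccna2, Cdk1, Birc5, Aurka, Aurkb, Bub1, Bub1b, Cdc20, Plk1, Kif11, Kif20a, Kif23, Cenpe, Cenpf, Nusap1, Prc1, Tpx2, Ube2c, Foxm1, Hmmr, Melk, Mcm2 to Mcm7, Rrm2, Pcna, Tyms, Cdc6 and Cdc45. Each had 1 row in both count tables, which hold 19689 mouse rows for liver and 20415 rows for the other tissues. All animals were 10-week-old male FRGN mice, which lack Fah, Rag2 and Il2rg on a non-obese diabetic background. Fah encodes an enzyme of tyrosine breakdown whose loss kills hepatocytes unless the drug nitisinone (NTBC) is given, and the other deletions leave the mouse without T, B and NK cells. Livers were repopulated, through injection into the spleen, with human hepatocytes (Hu, liver humanized) or murine hepatocytes (Mu, the control liver muranized). Both arms received NTBC in cycles (8 mg/l for 3 days every 5 weeks), sulfamethoxazole with trimethoprim, and 3% dextrose. By the labels, mice of the Hu arm were kept where human repopulation was above 70%. Host endothelial cells, macrophages, stellate cells, bile duct cells and any remaining host hepatocytes stay murine in a Hu liver. Mouse rows of a Hu liver therefore describe another mix of cells than those of a Mu liver. Tissues were taken at zeitgeber time (ZT, h after lights on) 2, 6, 10, 14, 18 and 22. Liver and muscle each gave 15 libraries in the Hu arm and 12 in the Mu arm, and the arcuate nucleus (ARC) and suprachiasmatic nucleus (SCN) each gave 10 and 12.

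A cell that divides first copies its DNA and then separates the copies. The MCM2-7 ring is loaded on origins with the help of Cdc6 and unwinds DNA together with Cdc45, while Rrm2 and Tyms supply deoxynucleotides and Pcna clamps the polymerase to the template. Cyclins A and B then activate Cdk1, Foxm1 drives transcription of mitotic genes, the Aurora and Polo kinases build the spindle with kinesins, and the anaphase-promoting complex (APC/C) with Cdc20 and Ube2c ends mitosis. Adult liver, muscle and brain hold few dividing cells, whereas bone marrow holds many. Mki67, the gene of the Ki-67 antigen, is widely used to mark cycling cells.

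Promoters are shown because these genes moved together in liver, and because genes of replication and of mitosis carry different known elements. RefSeq promoter windows (GRCm38.p6) were at hand for 30 of the 36 genes. Windows from 250 bases before to 50 after the start were searched on both strands. The letters searched were TTTGAA (the cell cycle homology region, CHR, of mitotic promoters), CCAAT (bound by NF-Y), and the E2F-type letters TTTGGCGC, TTTCCCGC or TTTCGCGC, which can overlap each other. TTTGAA stood in the windows of 16 of 30 genes (53.3%), against 20.2% of all genes with a window. CCAAT stood in 25 of 30 (83.3%, against 41.1%) and the E2F-type letters in 6 of 30 (20%, against 2.12%). A match of letters is a description and not a site of binding. By role, TTTGAA was found in 5 of 7 genes of mitotic kinases, checkpoint and APC/C and in 4 of 5 of spindle and midzone. It was found in 3 of 4 of kinetochores and chromosome structure, 2 of 4 cell cycle drivers, 2 of 7 of replication licensing and helicase (Cdc45 and Mcm2) and 0 of 3 of nucleotide supply and replication fork. The E2F-type letters were found in 5 of 7 genes of replication licensing and helicase (Cdc6, Mcm3, Mcm5, Mcm6 and Mcm7) and otherwise in Cdk1. The 5 windows below run 5′ to 3′ from 200 bases before to 30 after the start, with capitals for matched letters on either strand. Ccnb2 lies at chr9:70421525-70421754 (reverse strand), Cdk1 at chr10:69352883-69353112 (reverse), Mki67 at chr7:135716350-135716579 (reverse), Mcm5 at chr8:75109309-75109538 (forward) and Mcm6 at chr1:128359676-128359905 (reverse).
Ccnb2: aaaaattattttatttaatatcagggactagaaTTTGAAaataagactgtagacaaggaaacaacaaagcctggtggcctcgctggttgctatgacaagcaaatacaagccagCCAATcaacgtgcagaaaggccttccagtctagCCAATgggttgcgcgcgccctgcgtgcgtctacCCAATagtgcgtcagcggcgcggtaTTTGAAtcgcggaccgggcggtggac
Cdk1: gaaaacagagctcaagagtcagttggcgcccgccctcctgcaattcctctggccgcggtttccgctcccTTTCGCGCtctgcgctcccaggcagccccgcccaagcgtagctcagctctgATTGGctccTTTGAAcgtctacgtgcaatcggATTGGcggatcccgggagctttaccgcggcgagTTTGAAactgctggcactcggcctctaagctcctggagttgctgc
Mki67: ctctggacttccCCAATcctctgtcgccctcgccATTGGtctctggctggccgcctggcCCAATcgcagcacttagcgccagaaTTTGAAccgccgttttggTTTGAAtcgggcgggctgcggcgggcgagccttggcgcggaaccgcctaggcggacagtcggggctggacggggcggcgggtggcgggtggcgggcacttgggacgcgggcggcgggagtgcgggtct
Mcm5: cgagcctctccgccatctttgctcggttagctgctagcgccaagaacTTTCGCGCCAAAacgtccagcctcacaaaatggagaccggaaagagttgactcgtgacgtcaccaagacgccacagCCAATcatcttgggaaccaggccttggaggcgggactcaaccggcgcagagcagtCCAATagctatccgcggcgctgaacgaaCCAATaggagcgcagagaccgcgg
Mcm6: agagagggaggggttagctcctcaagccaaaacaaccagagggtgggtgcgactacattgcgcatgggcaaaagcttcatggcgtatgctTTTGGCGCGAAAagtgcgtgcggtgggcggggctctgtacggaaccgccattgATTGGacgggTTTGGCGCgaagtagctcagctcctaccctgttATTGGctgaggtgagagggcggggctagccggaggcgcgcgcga
Ccnb2, Cdk1 and Mki67 each show 2 copies of TTTGAA. Mcm5 and Mcm6 show none there and carry overlapping E2F-type letters. These 5 windows are examples and do not stand for all 30. The searched window of Ccnb1 held no TTTGAA, and those of Mcm2 and Cdc45 held TTTGAA without E2F-type letters.

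Counts in mouse rows came to 7.70 to 87.9 M (M, 1e6 counts) per Hu liver and 97.1 to 118 M per Mu liver, and to 43.1 to 92.1 M in muscle, 23.7 to 47.1 M in ARC and 25.5 to 34.9 M in SCN. Human rows took 15.9 to 93.1% of all counts in Hu livers (median 58.7%) and at most 0.0204% in Mu livers. Mouse Fah was at 442 to 687 CPM (counts per 1e6 mouse counts) in Mu livers and 6.23 to 35.8 CPM in Hu livers. Among 10 hepatocyte genes in mouse rows, 9 were lower in Hu livers and 0 higher. Of all 14977 genes tested there, 5542 were lower and 6365 higher. The 6 muscle fibre genes summed to 109303 to 177854 CPM in muscle and to at most 2.23 CPM in liver. Muscle library Hu ZT 6 replicate 1 stood apart: all 12 erythroid, all 13 granulocyte and all 6 megakaryocyte genes present in the table were highest there. Results in muscle are given with and without it.

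In liver, 35 of the 36 genes were higher in Hu than in Mu and 0 were lower (edgeR quasi-likelihood test of the level averaged over the day, Benjamini-Hochberg adjusted p under 0.05). Of all 14977 genes tested in liver, 6365 (42.5%) were higher in Hu and 5542 lower, so that 79.5% were called. The median difference of the 36 genes was 1.38 on the log2 scale, against 0.07 over all genes. Tyms, thymidylate synthase, was the exception, with a difference of -0.16 ± 0.09 (SE, adjusted p = 0.103). The labels do not tie libraries to animals, so p-values measure the spread between these libraries. Fewer cells of a type and less RNA per cell cannot be told apart in bulk tissue.

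**Figure D1:**
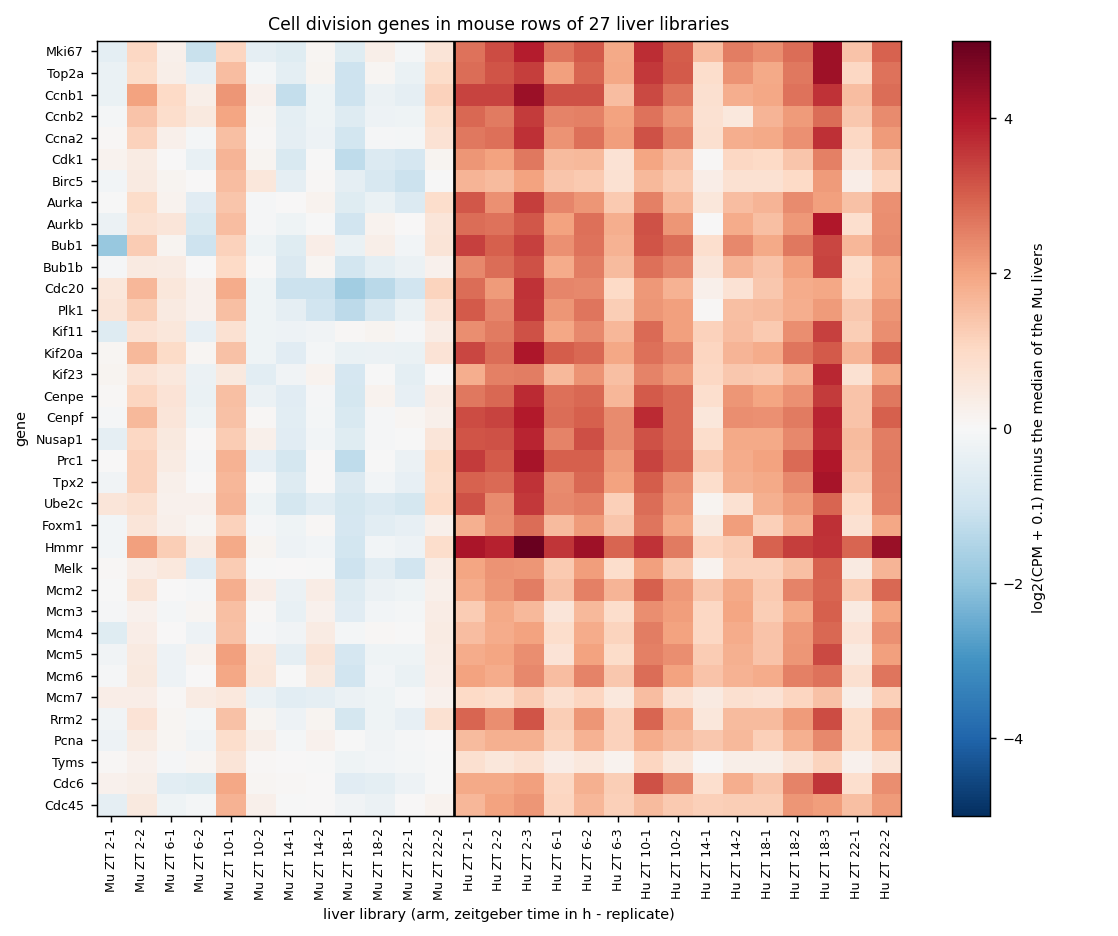
Levels of the 36 genes (rows) in mouse rows of the 12 Mu and 15 Hu liver libraries (columns), as log2(CPM + 0.1) minus the median of the Mu livers. Colour is above the Mu median in nearly all Hu columns, and among Mu livers ZT 10 replicate 1 is the highest for 31 of the 36 genes.

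Genes of kinetochores and chromosome structure had the largest median difference of the 6 roles, 1.94. Mki67 was at 1.83, 4.02 and 8.52 CPM (lowest, median, highest) in Mu livers and at 10.9, 28.8 and 77.9 CPM in Hu livers, so that the groups did not overlap. The fitted difference was 2.17 ± 0.27 on the log2 scale (SE, adjusted p = 1.26e-07), a 4.51-fold change. Top2a, the topoisomerase that untangles replicated DNA, was at 1.37, 2.89 and 8.52 CPM in Mu livers and at 5.43, 19.4 and 56.4 CPM in Hu livers. Of the 15 Hu livers, 13 lay above every Mu liver, and the difference was 1.86 ± 0.29 (adjusted p = 3.62e-06). The mitotic motor Cenpe and the kinetochore protein Cenpf were higher by 1.82 ± 0.26 and 2.02 ± 0.28.

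All 7 genes of spindle and midzone were higher, with a median difference of 1.70 and a range of 1.40 to 2.31. Hmmr, a microtubule-binding protein, had the largest difference of the 36 (2.31 ± 0.30, adjusted p = 2.19e-07). It rose from a median of 0.488 CPM in Mu livers to 6.94 CPM in Hu livers, and 13 of 15 Hu livers were above every Mu liver. Nusap1, which bundles spindle microtubules, differed by 1.93 ± 0.24 (adjusted p = 1.35e-07). Kif11 (chr19:37376403-37421859, GRCm38), the kinesin that pushes spindle poles apart, was at 0.827 to 2.40 CPM in Mu livers and at 3.20 to 15.6 CPM in Hu livers. Its groups did not overlap, and it differed by 1.51 ± 0.21 (adjusted p = 4.86e-07).

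All 6 cell cycle drivers were higher by 0.93 to 1.73, and all 8 genes of mitotic kinases, checkpoint and APC/C by 0.56 to 2.02. Cdk1 was at 1.16, 2.92 and 9.59 CPM in Mu livers and at 3.02, 8.63 and 18.9 CPM in Hu livers. The highest Mu liver reached into the Hu range, and only 5 of 15 Hu livers were above it; the difference was 0.93 ± 0.23 (adjusted p = 0.000794). Ccnb1, cyclin B1, was at 0.202, 0.592 and 3.02 CPM in Mu livers and at 1.10, 4.59 and 13.2 CPM in Hu livers, with 10 of 15 Hu livers above every Mu liver (1.73 ± 0.35, adjusted p = 8.92e-05). Birc5, survivin of the chromosomal passenger complex, had the smallest difference of its group (0.56 ± 0.18, adjusted p = 0.00636).

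Genes of licensing and helicase had a smaller median difference than those of kinetochores or spindle. Their values overlapped with those of cell cycle drivers and of mitotic kinases, checkpoint and APC/C. The 8 genes of licensing and helicase were all higher, with a median difference of 0.99 and a range from 0.27 for Mcm7 (adjusted p = 0.0252) to 1.40 for Cdc6. Mcm5 was at 1.93, 3.60 and 15.2 CPM in Mu livers and at 4.98, 14.1 and 36.4 CPM in Hu livers (0.99 ± 0.24, adjusted p = 0.000686). Mcm6 was at 4.91, 9.60 and 37.2 CPM in Mu livers and at 16.9, 38.9 and 67.7 CPM in Hu livers (1.16 ± 0.21, adjusted p = 2.68e-05). For both, the highest Mu liver was ZT 10 replicate 1, and 5 and 8 of 15 Hu livers were above it. Rrm2, a subunit of ribonucleotide reductase, was at 1.02, 1.94 and 5.497 CPM in Mu livers and at 2.90, 8.87 and 19.6 CPM in Hu livers (1.30 ± 0.26, adjusted p = 7.64e-05). Pcna had the smallest p of the 36 genes: it was at 10.5, 12.6 and 23.3 CPM in Mu livers and at 24.8, 39.0 and 67.5 CPM in Hu livers, without overlap (0.84 ± 0.10, adjusted p = 3.3e-08). The difference between the groups of roles was not tested.

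**Figure D2:**
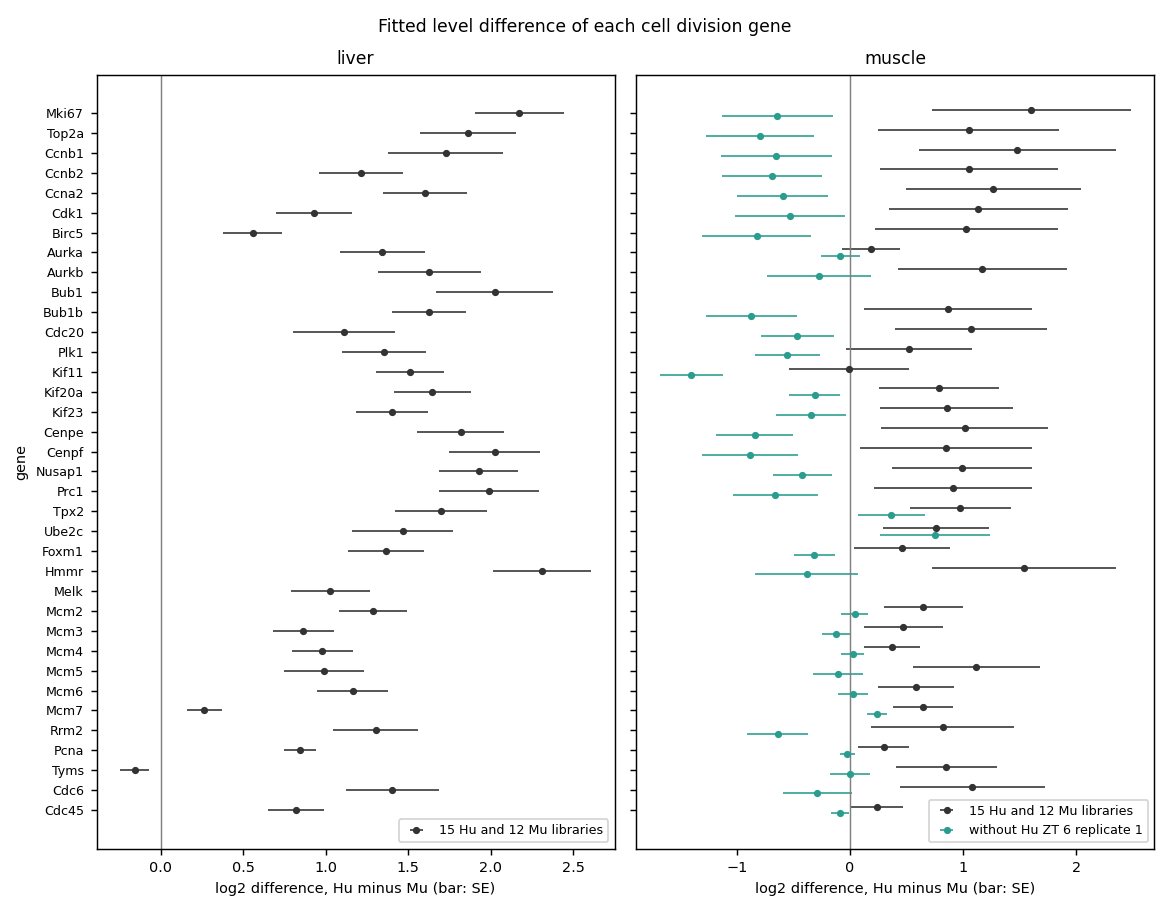
Fitted log2 difference of each gene (Hu minus Mu, dots, with SE bars) in liver (left) and in muscle (right), where black uses all 27 libraries and green leaves out Hu ZT 6 replicate 1. In liver 35 genes lie above 0. In muscle the median of the genes tested goes from 0.86 to -0.36 without that library.

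CPM here are scaled to the sum of mouse counts, while the fit adds TMM factors (a trimmed mean over genes), so ratios of CPM are larger than fitted folds. For Mki67 the ratio of mean CPM was 7.39. Without TMM factors, a scaling chosen after the data were seen, the median over all genes moved from 0.07 to 0.74 and 36 of 36 genes were higher. Tyms was then higher too (0.52 ± 0.12, adjusted p = 0.000254), in the direction of its CPM (medians 6.27 in Mu and 9.30 in Hu). Scaled to all counts, human ones included, the median over all genes moved to -0.70, 16 genes were higher and Tyms was lower. None of the 8 licensing and helicase genes passed there, while all 7 spindle and 4 kinetochore genes remained higher. Of all genes called, 53.5% were higher in the main fit, 84.9% without TMM and 21.7% over all counts. The median of the 36 genes stood 1.32, 1.36 and 1.31 above the median of all genes under these 3 scalings. A scaling shifts all genes of a library by the same factor, so this gap had to stay nearly alike. It is therefore no check of the difference between arms.

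Complete separation of the arms was rarer than the calls: 4 of 36 genes (Mki67, Kif11, Kif23 and Pcna) had every Hu liver above every Mu liver, against 26.2% of all genes tested. Mu ZT 10 replicate 1 was the highest Mu liver for 31 of the 36 genes. Its summed level of the 36 genes was 256 CPM, while the other Mu livers lay between 67.1 and 153 CPM and Hu livers between 183 and 769 CPM. Without it, 12 of 36 genes were separated, near the 29.5% of all genes tested that were. The same library had the highest Kupffer cell sum (997 CPM) and the highest granulocyte sum (27.4 CPM) among Mu livers; their part in its levels was not tested.

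Within Hu livers the genes ran together. Each gene's rank correlation with the sum of the others over the 15 libraries was between 0.67 for Aurka and 0.96, given as a description since the points share library and depth. Hu ZT 18 replicate 3, with 7.70 M mouse counts, was the highest Hu liver for 17 genes, and Hu ZT 2 replicate 3 for 16. Hu ZT 14 replicate 1 was the lowest for 25 genes and Hu ZT 22 replicate 1 for 9. Spread within the arm was wide: the summed level was 400 ± 165 CPM in Hu (SD, n = 15) and 113 ± 50.6 CPM in Mu (SD, n = 12).

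Markers of other murine cells moved with the arm. All 7 endothelial, 8 stellate cell and 7 bile duct genes and 6 of 9 Kupffer cell genes were higher in Hu, with 0 lower. Of all 14977 genes tested, 6365 (42.5%) were higher and 5542 lower. The bile duct sum was 59.9 to 142 CPM in Mu livers and 251 to 1605 CPM in Hu livers, and the endothelial sum 270 to 330 CPM and 358 to 3563 CPM. Kupffer cell genes summed to 537 to 997 CPM in Mu and 898 to 6732 CPM in Hu livers, stellate cell genes to 411 to 748 CPM and 707 to 10840 CPM. Of 11 granulocyte genes tested, 8 were higher in Hu, with sums of 1.24 to 27.4 CPM and 4.61 to 99.5 CPM. Sums of 7 lymphocyte genes reached at most 18.5 CPM in a Hu liver. Their part in the levels of the 36 genes was not tested.

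Other genes of division were read from 5 lists that hold 91 genes. All were tested, and 66 were higher in Hu and 10 lower, beside 6365 higher and 5542 lower of all 14977 genes tested. All 17 of spindle and cytokinesis were higher (Kif20b by 1.77 ± 0.21, Anln by 1.58 ± 0.21, Aspm by 1.82 ± 0.24), and so were all 6 of condensin (Smc2 by 1.30 ± 0.13). Genes of kinetochore and cohesion gave 14 higher and 1 lower of 20, and the one lower, the kinetochore gene Spc24, had the smallest p (-2.44 ± 0.13). DNA replication genes gave 16 higher and 7 lower of 29. The lower ones included Mcm10, a helicase activator (-2.69 ± 0.16), Tk1, thymidine kinase (-1.45 ± 0.11), and the GINS subunit Gins4 (-0.57 ± 0.06). Entry regulators gave 13 higher and 2 lower of 19, with Cdc25a at 1.29 ± 0.11, Mybl2 at 1.70 ± 0.15 and Myc at 1.88 ± 0.18.

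Of 14 brakes on division 8 were higher in Hu and 1 lower, beside the 42.5% of all genes that were higher. Cdkn1a, the p21 inhibitor, was at 5.04, 22.5 and 46.3 CPM in Mu livers and at 56.8, 118 and 225 CPM in Hu livers, without overlap (1.93 ± 0.26, adjusted p = 4.75e-07). Cdkn2b and Cdkn1c, other inhibitors of cyclin-dependent kinases, rose by 3.00 ± 0.21 and 1.91 ± 0.14. Cdkn1b, the p27 inhibitor, did not pass (0.11 ± 0.10, adjusted p = 0.311). 

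Over the day, few of the genes passed a test of a 24 h rhythm in liver. In Mu, 3 of 36 passed (17.3% of all genes did): Birc5 (adjusted p = 0.0309), Cdc20 (0.0409) and Plk1 (0.0494). Cdc20 and Plk1 had fitted peaks at ZT 4.66 and 4.65, with amplitudes of 1.34 and 0.99 on the log2 scale, and Birc5 at ZT 8.20 with 0.68. Cdc20 was at 1.97 and 4.30 CPM at ZT 2 and at 0.319 and 0.441 CPM at ZT 18. The calls rested on single libraries: 0 passed when Mu ZT 10 replicate 2, ZT 18 replicate 1, ZT 18 replicate 2 or ZT 22 replicate 1 was left out, and 1 passed without ZT 2 replicate 2, ZT 14 replicate 1 or ZT 14 replicate 2. With no TMM factors 0 passed. Next by p were Mcm7 (adjusted p = 0.0615) and Hmmr (0.0913).

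In Hu livers 0 of 36 genes passed, against 0.167% of all genes, with 9 at an unadjusted p under 0.05 and 2 called by DESeq2. Smallest were Hmmr (adjusted p = 0.125), Plk1 (0.151), Kif20a (0.171), Cdc20 (0.215) and Ccnb2 (0.225), all with fitted peaks between ZT 1.504 and 2.57. A difference of rhythm between the arms passed for 0 genes (1.28% of all genes), with 2 at an unadjusted p under 0.05 and 1 by DESeq2. The summed level at each time was led by single libraries: at ZT 18 the 3 Hu livers gave 266, 409 and 769 CPM, and at ZT 10 the 2 Mu livers gave 103 and 256 CPM.

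**Figure D3:**
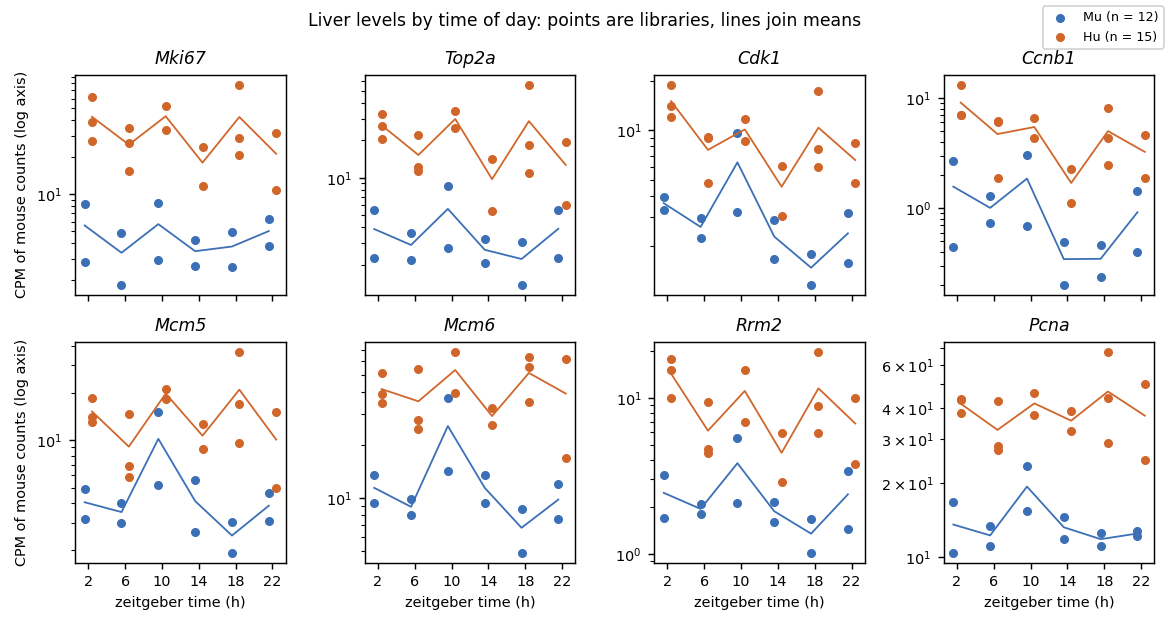
CPM (log axes) of 8 genes against zeitgeber time in Mu (blue) and Hu (orange) livers, with points for libraries and lines through the means. The Hu mean lies above the Mu mean for each of these genes at each of the 6 times. Points of a time lie far apart in some cases in both arms. In others they lie close, as for Pcna in Mu at ZT 18 (12.5 and 11.2 CPM).

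The relation to the human share was fitted across the 15 Hu livers. Per 10 percentage points of human share, 5 of 36 genes fell (24.3% of all genes did) and 1 rose (25.6% of all genes did). Those that fell act in mitosis: Aurka, the Aurora A kinase (-0.27 ± 0.06 per 10 points, adjusted p = 0.00254), Cdc20 (-0.29 ± 0.08, 0.00671), Kif20a (-0.22 ± 0.07, 0.0136), Plk1 (-0.24 ± 0.08, 0.0158) and Hmmr (-0.28 ± 0.10, 0.0278). Mcm3, of the licensing ring, rose (0.12 ± 0.05, adjusted p = 0.0476). Mki67 had a slope of -0.00065 ± 0.074. With cosine and sine of time added 0 of the 36 passed, against 41.7% of all genes in either direction. Human shares were 15.9 to 73.9% at ZT 2, 66.3 to 81.3% at ZT 10 and 53.7 to 93.1% at ZT 18. Mean shares were 41.7, 49.6, 73.8, 73.8, 67.0 and 47.6% at ZT 2, 6, 10, 14, 18 and 22. Share and time thus ran partly together in these livers, and a link of share with time was not tested. Cdc20, Kif20a, Plk1 and Hmmr were also among the genes with the smallest p for a rhythm in Hu livers. Without TMM factors 3 passed (Mcm3 up, Aurka and Cdc20 down), and over all counts 36 fell, beside a median slope of -0.32 over all genes.

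Single livers had high and low sums at both small and large human shares. The Hu liver with the smallest human share, ZT 2 replicate 1 with 15.9%, had a summed level of 423 CPM, and the one with the largest, ZT 18 replicate 3 with 93.1%, had 769 CPM. Hu ZT 2 replicate 3 with 35.3% had 631 CPM, while ZT 14 replicate 1 with 67.9% had 191 CPM and ZT 22 replicate 1 with 42.7% had 183 CPM. Every Hu liver except ZT 6 replicate 3, ZT 14 replicate 1 and ZT 22 replicate 1 was above the highest Mu liver. Markers of Kupffer, endothelial and stellate cells behaved otherwise: 8 of 9, 7 of 7 and 8 of 8 genes rose with human share, by medians of 0.26, 0.28 and 0.34 per 10 points. Of 10 hepatocyte genes 2 fell and 0 rose. Of all genes tested, 25.6% rose and 24.3% fell. Slopes of the bile duct genes are not given here.

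**Figure D4:**
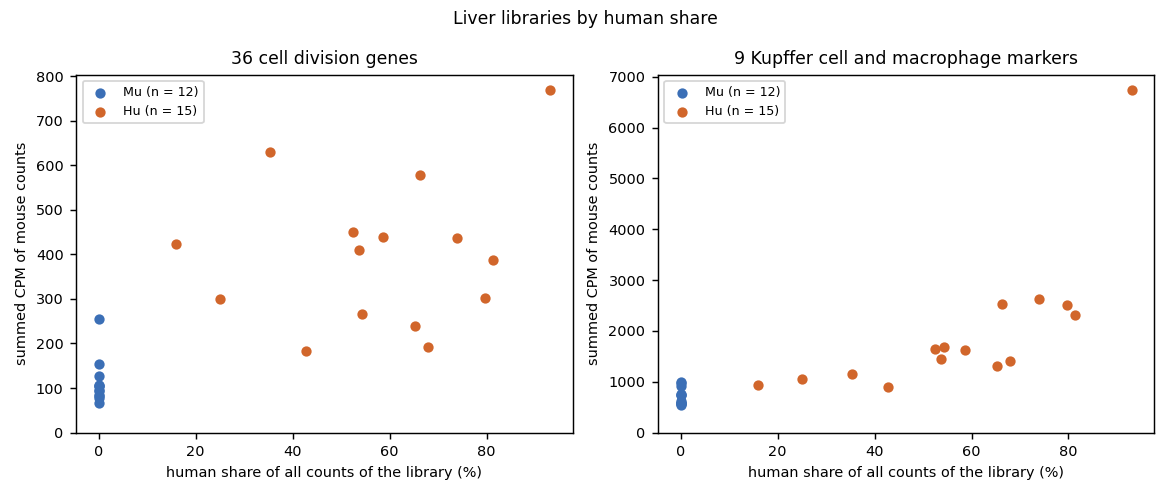
Summed CPM of the 36 genes (left) and of 9 Kupffer cell and macrophage genes (right) against the human share of each liver library, Mu in blue and Hu in orange. The sum of the 36 genes ranges from 183 to 769 CPM over Hu livers without a steady course, and the Kupffer cell sum is highest, at 6732 CPM, at a share of 93.1%.

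In muscle 34 of the 36 genes passed the filter on low counts, Bub1 and Melk not. The level differed between arms for 0 of them (26.9% of all genes did; 2 at an unadjusted p under 0.05, 1 by DESeq2), with a median difference of 0.86. That median came from 1 library: without Hu ZT 6 replicate 1 it was -0.36. Smallest p-values with all libraries were those of Mcm7 (0.65 ± 0.27, adjusted p = 0.0734), Tpx2 (0.98 ± 0.44, 0.105), Mcm5 (1.12 ± 0.56, 0.138), Tyms (0.85 ± 0.45, 0.158) and Hmmr (1.54 ± 0.82, 0.164).

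Hu ZT 6 replicate 1 held the highest value of 35 of the 36 genes, and it held the highest value of 2541 of the 12465 genes with a mean of 1 CPM or more. Mki67 was at 338 CPM there and at 0.174, 1.33 and 11.9 CPM (lowest, median, highest) in the other 26 libraries. Top2a was at 104 CPM against at most 6.98, Rrm2 at 109 against at most 3.82, Ccnb1 at 40.1 against at most 1.43 and Cdk1 at 32.9 against at most 2.02. These 5 genes lay far outside the range of the other libraries. Mcm5 was at 56.0 CPM against at most 3.47, Aurka at 23.5 against at most 7.62, Mcm6 at 70.9 against at most 8.50 and Pcna at 86.5 against at most 19.4. Over the 36 genes the median ratio to the median of the other libraries was 57.6.

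Genes of blood formation were high in the same library. Mpo, myeloperoxidase of granulocyte precursors, was at 174 CPM against at most 10.2 elsewhere, and Alas2, the haem enzyme of erythroid cells, at 364 against at most 13.1. The granulocyte sum was 2233 CPM there, the erythroid sum 12237 CPM and the megakaryocyte sum 302 CPM. Of 6 muscle fibre genes 1 was highest there, with ratios of 0.338 to 1.51 to the median of the other libraries, and of 6 genes of muscle stem cells and myoblasts 0 were. No other library came near these values, but 5 more had over 1 CPM of Mpo: Hu ZT 2 replicate 1 (8.73), Hu ZT 18 replicate 3 (2.69), Hu ZT 22 replicate 1 (3.34), Mu ZT 2 replicate 1 (3.73) and Mu ZT 10 replicate 1 (10.2). Mki67 was at 8.22, 5.86, 5.48, 4.39 and 5.93 CPM in these. Mu ZT 22 replicate 2 had the highest Mki67 among the other 26, 11.9 CPM, with a granulocyte sum of 0.814 CPM.

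**Figure D5:**
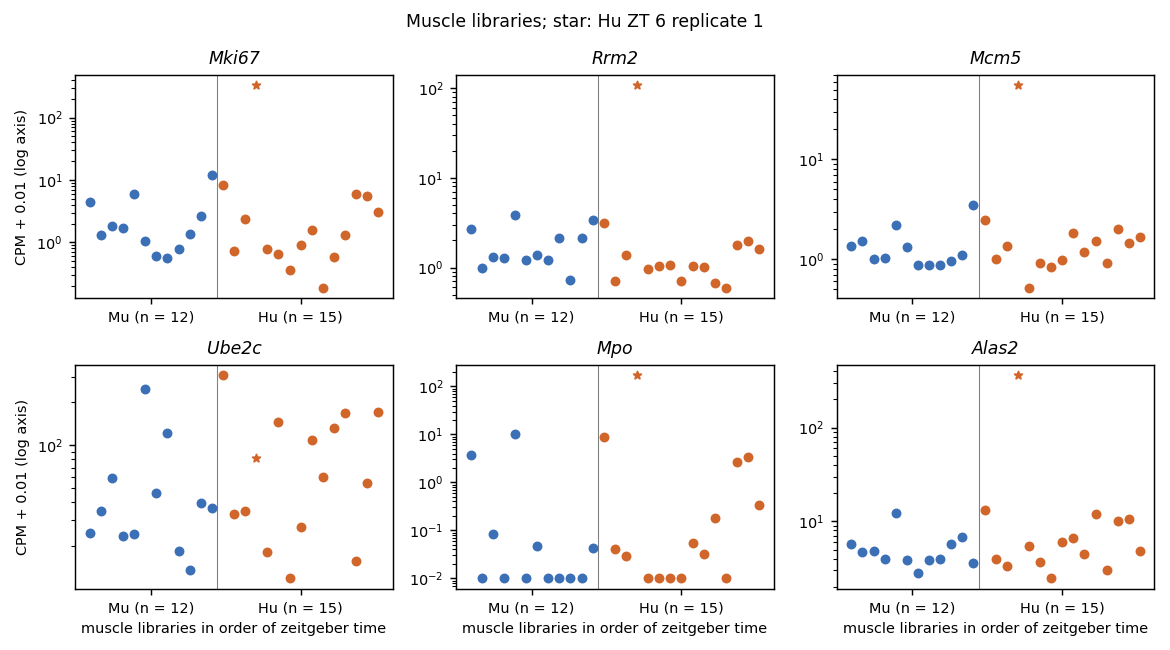
CPM + 0.01 (log axes) of 6 genes in the 12 Mu (blue) and 15 Hu (orange) muscle libraries in order of zeitgeber time, with a star for Hu ZT 6 replicate 1. The star lies far above all other points for Mki67, Rrm2, Mcm5, Mpo and Alas2, and within them for Ube2c.

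Without Hu ZT 6 replicate 1, 2 of 34 genes passed, against 26.3% of all genes. Kif11 was lower in Hu (-1.40 ± 0.28, adjusted p = 0.000963), with 0.206, 0.550 and 1.13 CPM in the 14 Hu libraries and 0.435, 1.11 and 4.25 CPM in Mu, so that the ranges overlapped. Mcm7 was higher in Hu (0.24 ± 0.09, adjusted p = 0.0402). Next were Cenpe (-0.84 ± 0.34, adjusted p = 0.0711), Rrm2 (-0.64 ± 0.27, 0.0812) and Bub1b (-0.87 ± 0.40, 0.111). Leaving out every library over 1 CPM of Mpo, a choice made after the data were seen, Kif11 alone passed (-1.40 ± 0.31, adjusted p = 0.00706) of 31 genes tested, against 16% of all genes. With all libraries, Kif11 differed by -0.01 ± 0.53. Mcm7 shares 321 exon bases with Ap4m1 and 64 with Cops6 on the opposite strand.

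Ube2c (chr2:164769898-164778822, GRCm38), the ubiquitin-conjugating enzyme of the APC/C, was the 1 gene that did not peak in Hu ZT 6 replicate 1. It was at 13.5, 35.8 and 248 CPM in Mu muscle and at 11.8, 59.9 and 310 CPM in Hu muscle, with 81.5 CPM in that library, and at most 11.05 CPM in any liver. Its mean per kilobase of exon was the highest of the 36 genes in Mu muscle, at 22.1 CPM per kb against 5.66 for Pcna and 0.282 for Mki67. That mean was raised by Mu ZT 10 replicate 2 (248 CPM) and Mu ZT 14 replicate 2 (122 CPM). In the GENCODE annotation its exons share 592 of 2600 bases with Tnnc2 on the opposite strand, which encodes troponin C of fast muscle fibres and was at 4195 to 10054 CPM in muscle. Ube2c counts were 0.184 to 3.82% of those of Tnnc2. The counting of strands is not given in the sources used here, so reads of the pair cannot be told apart, and Ube2c in muscle is uncertain. Of the other genes, Ccna2, Cdc20, Kif20a, Nusap1, Prc1, Mcm7 and Cdc45 also share exon bases with a protein-coding gene on the opposite strand.

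A rhythm in Hu muscle passed for 16 of 34 genes, against 7.78% of all genes, with fitted peaks from ZT 4.39 to 7.61. These calls rested on the library with marrow genes: without it 0 of 34 passed (7.81% of all genes did), and the smallest adjusted p was 0.0838 for Nusap1. Under 0.05 unadjusted in that fit were Nusap1, Cenpf, Cenpe, Ccnb1, Mki67, Mcm2, Hmmr, Bub1b, Birc5 and Kif20a, with fitted peaks from ZT 22.2 to 23.9. Mcm4, with a fitted peak at ZT 10.1, was under 0.05 too, as were 3731 of all 14156 genes. With all libraries the smallest adjusted p-values were those of Rrm2 (adjusted p = 0.022), Cdc6 (0.032), Kif11 (0.0347), Ccnb2 (0.0377) and Plk1 (0.0411). DESeq2 called 1, and leaving out single other libraries gave 1 to 27 calls. A rhythm in Mu muscle passed for 0 genes (5.31% of all genes), with 0 at an unadjusted p under 0.05 and 0 by DESeq2. Without Hu ZT 6 replicate 1 it again passed for 0 (7.84% of all genes). Smallest there were Kif11 (unadjusted p = 0.0176, adjusted 0.109) and Foxm1 (0.0186, 0.112). Without libraries over 1 CPM of Mpo it passed for 0 too (3.48% of all genes). Smallest in that fit were Cdc20 (unadjusted p = 0.00194, adjusted 0.0510) and Mki67 (0.00721, 0.0849). Also under 0.05 unadjusted there were Mcm6, Top2a, Cenpe, Kif11, Foxm1, Ccna2, Ube2c, Prc1, Bub1b, Tyms, Cenpf and Kif20a. Of all 14097 genes, 3575 were under 0.05 unadjusted in that fit. A difference of rhythm passed for 0 (0.0704% of all genes), with 3 at an unadjusted p under 0.05 and 0 by DESeq2. Of all 14197 genes tested for level in muscle, 1923 were higher in Hu and 1894 lower. Without Hu ZT 6 replicate 1 these were 1786 and 1937 of 14156. Among brakes in muscle, 6 of 14 were higher in Hu and 0 lower (5 and 0 without Hu ZT 6 replicate 1). Cdkn1a was higher by 1.20 ± 0.30 (adjusted p = 0.00545), and Cdkn1b did not pass (0.16 ± 0.07, adjusted p = 0.104). Other division genes gave 3 higher and 1 lower of 81 tested, and without Hu ZT 6 replicate 1 they gave 3 higher and 10 lower of 80.

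In ARC, the hypothalamic nucleus that senses energy state, several mitotic genes were near the floor of detection. Mki67 was at 0.127, 0.388 and 1.30 CPM in Mu and at 0.172, 0.391 and 0.730 CPM in Hu, with at most 37 counts in a library. Kif11, with a median of 2.17 CPM in Mu, was higher. Cdk1 had at most 13 counts, Ccnb1 at most 10 and Top2a at most 26. Pcna was much higher, at 19.04, 21.03 and 24.4 CPM in Mu and at 18.6, 21.1 and 24.1 CPM in Hu, and so were Mcm4, Mcm6 and Mcm7, with medians of 9.19 to 13.99 CPM in Mu. The ranges of the arms overlapped for these genes. Of the 27 genes tested 0 differed between arms (0.00663% of all genes did; 4 at an unadjusted p under 0.05, 0 by DESeq2). The smallest p was that of Cdc45 (-0.36 ± 0.09, adjusted p = 0.414), followed by Mcm6 (0.15 ± 0.06), Ccnb2 (0.34 ± 0.16), Birc5 (-0.26 ± 0.13) and Rrm2 (-0.27 ± 0.18), each at an adjusted p of 0.999. A rhythm in either arm passed for Mcm2 alone (adjusted p = 0.0246; 1.64% of all genes passed). Mcm2 was at 2.82 and 4.07 CPM at ZT 2 in Mu, 4.63 and 4.03 at ZT 6 and 2.76 and 3.28 at ZT 18, with fitted peaks at ZT 7.67 in Mu and 3.78 in Hu. With Mu ZT 6 replicate 1, Hu ZT 2 replicate 1, Hu ZT 2 replicate 2, Hu ZT 6 replicate 1 or Hu ZT 14 replicate 1 left out, 0 passed, and with Mu ZT 2 replicate 2, Mu ZT 14 replicate 1, Mu ZT 18 replicate 1, Hu ZT 18 replicate 2 or the Hu ZT 22 library left out, 2 passed. Next were Mcm6 (adjusted p = 0.0522), Kif20a (0.124), Cdc45 (0.398) and Cdc20 (0.503).

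In SCN, the central circadian pacemaker, levels were much the same. Mki67 was at 0.223, 0.437 and 1.11 CPM in Mu and at 0.240, 0.445 and 0.803 CPM in Hu, and Pcna at 17.97, 19.8 and 22.2 CPM and at 17.3, 20.3 and 22.8 CPM. Of 28 genes tested 0 differed between arms (0% of all genes did), with 0 at an unadjusted p under 0.05 and 0 by DESeq2. The smallest p was that of Mcm3 (0.24 ± 0.13, adjusted p = 1), followed by Prc1, Tpx2, Mcm6 and Mcm2. A rhythm passed for 0 (0.4% of all genes), with 8 at an unadjusted p under 0.05 and 0 by DESeq2. At these counts a small difference in mitotic genes was not detectable.

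Set side by side as means per kilobase of exon, Pcna varied less between tissues than Mki67 and Cdk1. Pcna was at 5.75 CPM per kb in Mu liver, 5.66 in Mu muscle, 8.84 over all ARC and 8.29 over all SCN libraries, and at 16.5 in Hu liver. Mki67 was at 0.445 in Mu liver, 3.29 in Hu liver, 0.282 in Mu muscle, 0.0438 in ARC and 0.0476 in SCN. Cdk1 was at 0.635 in Mu liver, 1.91 in Hu liver, 0.0899 in Mu muscle, 0.0383 in ARC and 0.0356 in SCN.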

How the data were processed

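The authors deposited raw read counts per gene, 1 table with mouse and human rows for liver and 1 table for muscle, ARC and SCN. Libraries were strand-directional, per the labels' protocols, and STAR is named with builds GRCm38, mm10, GRCh38, hg38 and hg19, per the submitters' processing notes. The counting program, its annotation and its use of strand are not given in the sources used here. Groups came from the labels, and 2 Hu ZT 22 columns (1 ARC, 1 SCN) fit their group but no numbered sample.

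Mouse rows were fitted on all genes per tissue with edgeR 4.0.16 (R 4.3.3): TMM, filterByExpr by arm, quasi-likelihood F tests with arm and a 24 h cosine and sine per arm, Benjamini-Hochberg adjustment over all genes tested and a threshold of 0.05. SE is the log2 difference over the square root of F. The slope used Hu livers and human share. Amplitudes are on the log2 scale from mean to peak. CPM are counts per 1e6 mouse counts, without TMM. Exon lengths and overlaps came from GENCODE (GRCm38). Scripts were tested on simulated data.

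Values are given for Mki67, Top2a, Cdk1, Ccnb1, Mcm5, Mcm6, Rrm2 and Pcna, for the 5 members with the smallest p in each result, for members against the main direction, and for at most 3 genes with the smallest p in each other list, plus Cdkn1a and Cdkn1b. Kif23, Cenpe, Cenpf, Birc5, Cdc6, Ube2c, Tnnc2, Mpo and Alas2 were named after their values were seen. The members and lists were chosen with earlier results of these data known. Alternatives were DESeq2 1.42.0, RLE factors, no filter, the replicate number as a block, library sizes over all rows and leaving out each library. Sizes without TMM and leaving out libraries over 1 CPM of Mpo were added after the data were seen.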

Additional observations from a re-analysis of the deposited data

Results flagged for a closer look

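Groups of 10 libraries, Hu ARC and Hu SCN, were tested for a value far from the others with 8 genes each (Mki67, Top2a, Cdk1, Ccnb1, Mcm5, Mcm6, Rrm2 and Pcna), 16 tests in all, and 1 held such a value. Larger groups, liver and muscle among them, were not tested this way. Ccnb1 in Hu ARC was at 0.356 CPM in ZT 10 replicate 1, while the next highest library was at 0.203 CPM, a gap of 0.503 of the group's whole range. Chance flags about 1 in 20 groups. Ccnb1 had at most 10 counts in an ARC library.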

How the results depend on the processing

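Depth limits the mitotic genes in ARC and SCN, where counts were few, and the Hu livers with the fewest mouse counts. Counts of genes called are given here. In liver the level gave 17 with library sizes over all rows and 34 to 35 with single libraries left out, against 35; a rhythm in Mu gave 5 with DESeq2, 1 with the replicate block, 0 over all rows, 0 without TMM and 0 to 4 with single libraries left out, against 3. A rhythm in Hu livers gave 2 with DESeq2 (3.46% of all genes), 30 over all rows (58.4% of all genes) and 0 to 1 with single libraries left out (1 without Hu ZT 2 replicate 2), against 0. A different rhythm gave 1 with DESeq2 and 0 to 1 with single libraries left out (1 without Mu ZT 6 replicate 1). The slope gave 36 over all rows, 3 without TMM, 0 with cosine and sine of time and 4 to 7 with single libraries left out, against 6. In muscle the level gave 1 with DESeq2, 2 without the library with marrow genes, 1 without libraries over 1 CPM of Mpo and 0 to 2 with single libraries left out (1 without Hu ZT 6 replicate 2), against 0. A rhythm in Hu muscle gave 1 with DESeq2, 7 with no filter, 0 with the replicate block, 25 with matched replicate numbers, 0 without the library with marrow genes, 0 without libraries over 1 CPM of Mpo and 0 to 27 with single libraries left out, against 16. A rhythm in ARC gave 2 with DESeq2, 2 with RLE factors, 2 with no filter, 0 with matched replicate numbers and 0 to 2 with single libraries left out, against 1. The muscle rhythm in Mu, the different muscle rhythm, the ARC and SCN levels and the SCN rhythm stayed at 0 in the alternatives run. The cause of these moves was not tested.

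Single genes changed sign as follows. In liver, Tyms was at 0.52 without TMM, and over all rows Mcm7 was at -0.44 and Birc5 at -0.21. In muscle, Mki67 was at -0.16 with the replicate block of time point and number, at -0.64 without the library with marrow genes and at -0.72 without libraries over 1 CPM of Mpo. Mcm5 was at -0.10 and -0.14 in the last 2 settings, and Hmmr at -0.38 without the library with marrow genes. With single libraries left out, Mki67 ranged from -0.64 to 2.15, Kif11 from -1.40 to 0.14, Mcm5 from -0.10 to 1.34 and Hmmr from -0.38 to 2.03. The slope of Mki67 was 0.0074 with DESeq2, 0.0060 with RLE factors, 0.085 without TMM, 0.076 with cosine and sine of time, 0.025 on the logit of the share and -0.072 to 0.059 with single libraries left out. The slope of Mcm3 was -0.20 over all rows.

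Same-numbered Hu and Mu libraries of a time did not all deviate together from their group means. The correlation had a mean of 0.115 over 12 pairs in liver (0.0129 to 0.313), 0.0250 over 12 in muscle (-0.145 to 0.462), 0.130 over 8 in ARC (-0.159 to 0.350) and 0.120 over 8 in SCN (-0.275 to 0.397), so the numbers were not used as pairs.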
